A study of Homo sapiens with 12 samples.

Results

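The genes of DNA replication and of the entry into S phase were examined in HT-29, a line from a human colorectal adenocarcinoma, during treatment with a mixture that drives necroptosis. The set had 45 named genes, each of which stood on 1 line of a deposited expression table of 19128 gene symbols. They were named for their function. TBZ combines TNFα (20 ng/mL), BV6 (2 µM) and zVAD-fmk (30 µM), in which BV6 acts against inhibitor of apoptosis proteins and caspases are blocked by zVAD-fmk. The second experiment, which gave the replicated data, had 4 groups of 2 libraries: cells with a short hairpin RNA against GFP (shGFP, the control) and cells with one against MLKL delivered by lentivirus (shMLKL), each under DMSO or after 5 h of TBZ. MLKL is the pseudokinase that breaches the cell membrane when necroptosis runs. The first experiment had 1 library in each of 4 groups: parental cells under DMSO or after 4 h of TBZ, and shMLKL cells under DMSO or after 12 h of TBZ. The labels do not say how many hairpins or clones a line had, and the effect of the knockdown and other differences between the lines cannot be told apart. Nor do they state that the libraries within a group stem from separate cultures. The p-values then measure the spread between these samples alone, which may be technical.

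In dividing cells, origins of replication are licensed in G1 when the origin recognition complex, CDC6 and CDT1 load the MCM2 to MCM7 helicase onto DNA. The helicase fires once CDC45 and the GINS complex join it, and polymerases held by the PCNA clamp then copy the strands from nucleotides supplied by enzymes such as ribonucleotide reductase. Cyclins D and E with their kinases release E2F transcription factors from the RB protein, and E2F is known for driving most of these genes, while p21 (CDKN1A) holds the kinases back.

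Since E2F is known for driving many of these genes, the promoters were searched for its motif, and the stretches around the last match that lies wholly before the start site are shown for 6 members that changed with TBZ in either line. They are from RefSeq (GRCh38.p14), 5′ to 3′ on the strand of the gene, and capitals mark the E2F motif, written here as TTTGGCGC, TTTCGCGC, TTTCCCGC or TTTGCCGC and searched on both strands.
MCM3: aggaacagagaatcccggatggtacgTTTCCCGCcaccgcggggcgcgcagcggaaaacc
MCM6: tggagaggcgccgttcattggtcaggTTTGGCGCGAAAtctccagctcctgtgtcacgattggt
GINS2: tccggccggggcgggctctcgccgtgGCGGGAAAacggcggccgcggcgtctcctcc
MCM7: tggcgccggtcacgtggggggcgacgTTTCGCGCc
PCNA: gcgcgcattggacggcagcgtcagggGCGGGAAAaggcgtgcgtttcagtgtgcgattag
CDT1: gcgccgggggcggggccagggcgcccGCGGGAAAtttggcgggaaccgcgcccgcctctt
They lie at chr6:52284883-52284942 (MCM3), chr2:135876496-135876559 (MCM6), chr16:85688955-85689011 (GINS2), chr7:100101398-100101432 (MCM7), chr20:5126648-5126707 (PCNA) and chr16:88803728-88803787 (CDT1), the last on the forward strand and the others on the reverse strand. In MCM6 2 matches overlap on opposite strands. MCM3 has a further match that spans its start. MCM6 (first bases at −152 and −148 from the start) and MCM7 (−187) have further matches upstream. These further matches are not shown. Promoter windows of 300 bases, from 250 before to 50 after the start, were at hand for 37 members, and 20 of the 37 (54.1%) held the E2F motif, against 3.31% of all 35116 windows. A CCAAT box stood in 21 (56.8%, against 34.6% of all windows), and the CHR element, TTTGAA or TTCGAA, in 2 (5.41% against 16.4%). Motifs of the pathways that TNF activates were rare in both: the NF-kB motif, GGG, any 2 bases and TTTCC, stood in 2 member windows (5.41% against 1.91%) and the AP-1 motif TGANTCA in 1 (2.70% against 7.71%). A match is a description of these letters and not evidence of binding. Of the matched members that were tested, leaving out RFC4 (below), 11 of 19 with the motif and 9 of 16 without it fell in shGFP cells under TBZ, where 37.3% of all genes tested fell, with median log2 changes of −0.34 and −0.22. The median change in shMLKL cells was −0.04 with the motif and 0.04 without it. Under DMSO 16 of the 19 and 14 of the 16 were lower in shMLKL than in shGFP cells, where 44.8% of all genes were lower.

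MLKL itself read 3.95 and 3.89 FPKM under DMSO and 1.98 and 2.03 under TBZ in the shGFP line, against 0.606 and 0.545, and 0.651 and 0.395, in the shMLKL line. The groups of the 2 lines did not overlap. In the first experiment MLKL read 6.31 FPKM in parental DMSO and 6.16 after 4 h of TBZ. In its shMLKL cells MLKL read 0.854 under DMSO and 2.145 after 12 h of TBZ. Over all genes of the second experiment, Pearson's r of log2 values was 0.989 to 0.992 within groups and 0.928 to 0.967 between them. Depth is unknown, because no file held read counts. Of 8 colon epithelial markers 7 reached 1 FPKM in some library and CDX1 stayed below it, while KRT8 and KRT18 were listed at 0 in 7 of the 8 libraries, so an exact 0 in this table can be a failed estimate. Their summed level was 615.4 to 617.3 FPKM in shGFP DMSO, 520.2 to 523.4 in shGFP TBZ, 663.2 to 1904 in shMLKL DMSO and 549.5 to 549.6 in shMLKL TBZ. The epithelial marker VIL1 also differed between the lines (20.6 and 20.0 FPKM under DMSO in shGFP, 8.00 and 7.31 in shMLKL), and its part in the results was not tested. Of 6 leukocyte markers, CD3E was at 0 and PTPRC below 0.1 in every library, LYZ was at 521 to 658, and the summed level was 605 to 613, 526 to 529, 612 to 663 and 604 to 644 FPKM in shGFP DMSO, shGFP TBZ, shMLKL DMSO and shMLKL TBZ. The fibroblast and endothelial markers summed to at most 0.265 FPKM and the liver and kidney markers to at most 1.27.

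The members covered a wide range of levels. Under DMSO in shGFP cells their means ran from 0.421 FPKM for E2F2, an activating E2F, to 62.3 for RRM1, with a median of 9.61. The median over the members was 8.03 in shGFP cells under TBZ, 7.77 in shMLKL cells under DMSO and 7.39 in shMLKL cells under TBZ. E2F2 was below the expression filter of a mean of 1 FPKM in at least 1 group, so 44 members were tested. In its 8 libraries it was at 0.515 and 0.328, 0.151 and 0.0586, 0.199 and 0.188, and 0.0796 and 0.108 FPKM in the order shGFP DMSO, shGFP TBZ, shMLKL DMSO and shMLKL TBZ. In all that follows, changes are differences of log2(FPKM + 1), which understate fold changes of low genes, and a gene is called when its limma p-value, adjusted by Benjamini-Hochberg over 10364 genes, is below 0.05. In bulk RNA, fewer cells of a kind and less RNA per cell cannot be told apart.

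**Figure D1:**
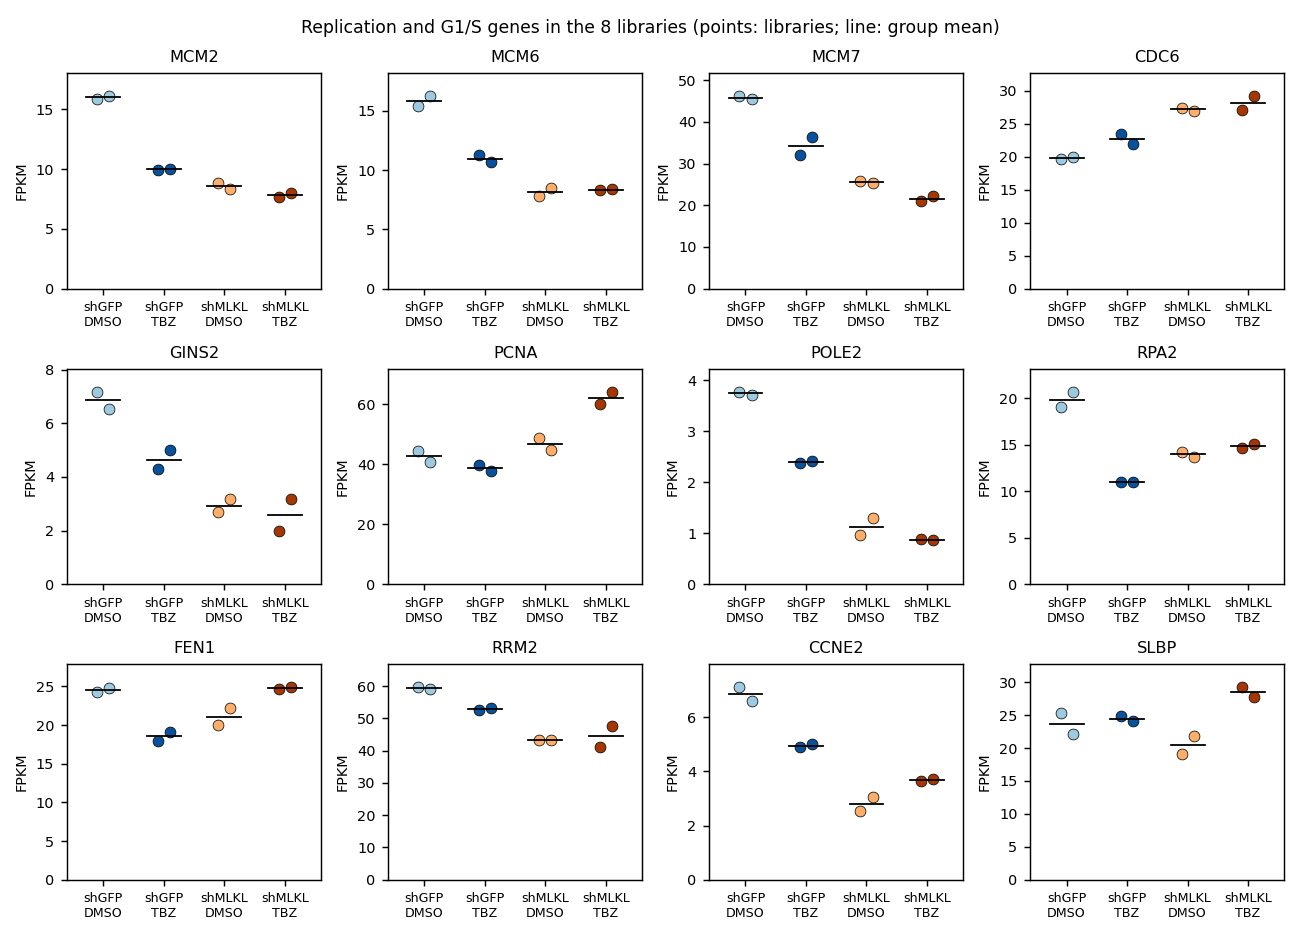
FPKM of 12 members in the 8 libraries; each point is a library, each line the mean of 2 libraries, and every axis starts at 0. MCM6, RPA2 and CCNE2 are lower under TBZ than under DMSO in shGFP cells but not in shMLKL cells, CDC6 is highest in shMLKL cells, and PCNA is highest in shMLKL cells under TBZ at 60.1 and 64.2.

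In shGFP cells TBZ lowered most of the replication genes. Of the 44 members tested 26 fell, 1 rose and 17 were not called, where 37.3% of all genes tested fell and 19.1% rose. The median change over the members was −0.31, and that over all genes −0.12. In shMLKL cells the same treatment gave 3 falls, 7 rises and 34 members not called, where 17.6% of all genes fell and 20.0% rose, with a member median of 0.02 that lay near the −0.004 over all genes. The TBZ effects themselves differed between the lines for 18 members, in each the effect being higher in shMLKL cells and in none lower, where 14.6% of all genes differed upwards and 7.66% downwards. One of the 18 is RFC4, whose shMLKL values were all listed at 0 (below), which leaves 17. The 2 TBZ comparisons of this test use separate control libraries. With library medians set equal 12 members differed upwards, against 6.72% of all genes, and 10.5% of all genes differed downwards.

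Before any TBZ the lines were already apart. Under DMSO 38 members were lower in shMLKL than in shGFP cells, 1 was higher and 5 were not called, where 44.8% of all genes tested were lower and 18.3% higher. The median difference over the members was −0.46, and that over all genes −0.16. Setting the library medians equal moved that median of all genes to 0.008, after which 26 members were lower and 2 higher, against 26.6% and 30.1% of all genes. Under TBZ 18 members were lower and 6 higher in shMLKL cells, where 31.0% of all genes were lower and 20.7% higher, and with equal medians 16 were lower and 9 higher, against 22.7% and 27.3%. Both counts of lower members include RFC4. The 2 comparisons of this paragraph share libraries with the TBZ comparisons, so the line differences and the TBZ changes of a member are not independent.

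**Figure D2:**
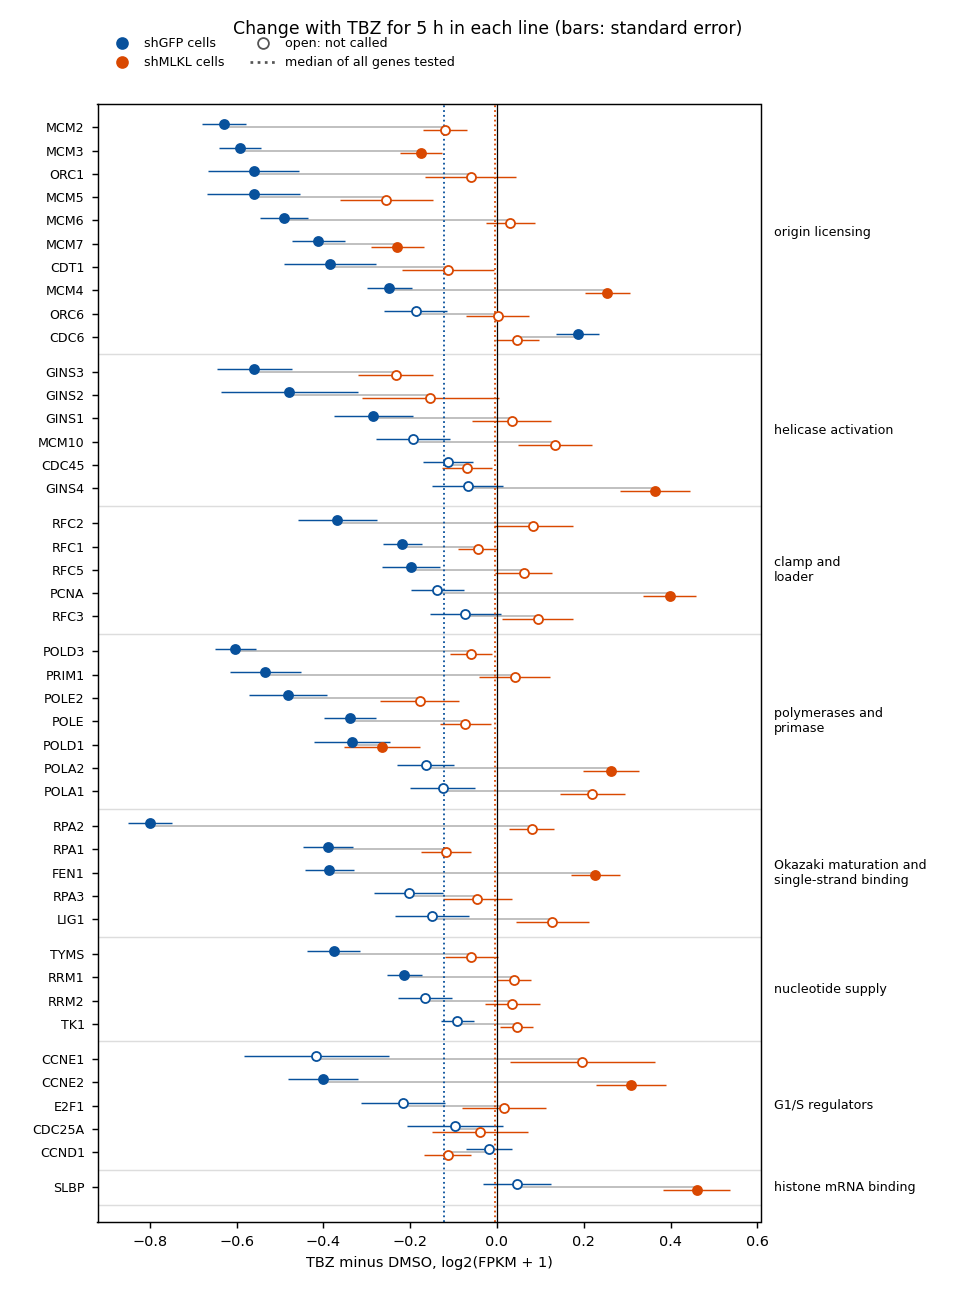
Change with 5 h of TBZ in log2(FPKM + 1) for 43 members by role, in shGFP cells (blue) and shMLKL cells (orange); bars are standard errors, open points were not called, dotted lines are the medians of all genes, and RFC4 and E2F2 are left out. Most blue points lie left of the orange ones, with the widest gap at RPA2 (−0.80 and 0.08).

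The helicase that is loaded at origins fell as a whole in shGFP cells. All 6 genes MCM2 to MCM7 fell with TBZ there, with a median of −0.53, and all 6 kept that call under every alternative run. MCM2 (hg19 chr3:127317200-127341278, forward strand) stood at 15.9 and 16.1 FPKM in DMSO-treated shGFP cells, 9.92 and 10.03 in TBZ-treated shGFP cells, 8.87 and 8.30 in DMSO-treated shMLKL cells and 7.64 and 8.001 in TBZ-treated ones. The shGFP DMSO libraries were the highest and did not overlap any other group, and both shGFP TBZ libraries were still above those of shMLKL cells. The change with TBZ was −0.63, SE 0.051, limma adjusted p = 4.15e-05 in shGFP cells, while in shMLKL cells it was −0.12, adjusted p = 0.105 and did not pass the test. The lines' TBZ effects on MCM2 differed by 0.51, adjusted p = 0.00307, and under DMSO the level in shMLKL cells was lower (−0.83, adjusted p = 1.22e-05).

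MCM3 (chromosome 6) read 25.4 and 25.04 FPKM in shGFP cells under DMSO and 15.8 and 17.02 under TBZ, and 14.2 and 13.5 and then 12.3 and 12.02 in shMLKL cells. It fell in both lines (−0.59, SE 0.049, limma adjusted p = 4.65e-05 in shGFP, −0.18, adjusted p = 0.0252 in shMLKL), and by more in shGFP cells (0.42, adjusted p = 0.00629). MCM7 fell in both lines as well, from 46.1 and 45.4 to 32.02 and 36.4 FPKM in shGFP and from 25.8 and 25.3 to 20.96 and 22.2 in shMLKL cells (−0.41, adjusted p = 0.000962 and −0.23, adjusted p = 0.0213). For MCM7 a difference between these effects was not called (0.18, adjusted p = 0.171). The falls in shMLKL cells were weak: the call of MCM3 was lost without shMLKL DMSO replicate 1, shMLKL TBZ replicate 1 or shMLKL TBZ replicate 2 (−0.19 to −0.14, adjusted p 0.0622 to 0.123), and that of MCM7 without shMLKL DMSO replicate 1, shMLKL DMSO replicate 2 or shMLKL TBZ replicate 1 (−0.24 to −0.19, adjusted p 0.0638 to 0.106).

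MCM4 went opposite ways in the 2 lines. It dropped from 26.2 and 25.4 to 21.8 and 21.3 FPKM in shGFP cells (−0.25, SE 0.052, limma adjusted p = 0.0049) and rose from 14.97 and 13.6 to 17.1 and 17.3 in shMLKL cells (0.25, SE 0.052, limma adjusted p = 0.00683), with no overlap between DMSO and TBZ libraries in either line. Even after the rise both shMLKL TBZ libraries stayed below those of shGFP TBZ. MCM5 stood at 8.90 and 7.46, 5.16 and 5.25, 5.06 and 4.50 and 3.45 and 4.26 FPKM in shGFP DMSO, shGFP TBZ, shMLKL DMSO and shMLKL TBZ, and its fall in shGFP cells was −0.56, adjusted p = 0.00323. MCM6, the subunit whose promoter holds the overlapping matches shown above, fell from 15.4 and 16.2 to 11.3 and 10.7 in shGFP cells (−0.49, adjusted p = 0.000253) and read 7.85 and 8.48 and then 8.31 and 8.40 in shMLKL cells (0.03, adjusted p = 0.706). Under DMSO the 6 MCM genes were lower in shMLKL cells, with differences of −0.66 to −0.88, and under TBZ with differences of −0.31 to −0.64. The call of MCM5 under TBZ was lost without shGFP TBZ replicate 1, shGFP TBZ replicate 2 or shMLKL TBZ replicate 1 (−0.37 to −0.24, adjusted p 0.0836 to 0.136), and also with equal library medians (−0.28, adjusted p = 0.0604), quantile normalization (−0.27, adjusted p = 0.0775) or no filter (−0.36, adjusted p = 0.0547).

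CDC6, the ATPase that loads the helicase, stood apart from the genes it works with. It read 19.6 and 19.9 FPKM in DMSO-treated shGFP cells, 23.4 and 21.9 in TBZ-treated shGFP cells, 27.4 and 26.9 in DMSO-treated shMLKL cells and 27.1 and 29.1 in TBZ-treated ones (hg19 chr17:38444146-38459413, forward strand). The shMLKL libraries were the highest under both conditions, and it was the 1 member called higher in shMLKL cells under DMSO (0.44, SE 0.05, limma adjusted p = 0.000206); it was higher under TBZ too (0.30, adjusted p = 0.00185). It was also the 1 member called higher with TBZ in shGFP cells (0.19, adjusted p = 0.0146), but that call was lost without shGFP DMSO replicate 1, shGFP DMSO replicate 2 or shGFP TBZ replicate 1 (0.14 to 0.19, adjusted p 0.05 to 0.0902). In shMLKL cells its change with TBZ was 0.05, adjusted p = 0.503, and the TBZ effects differed by −0.14, adjusted p = 0.189.

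Of the other licensing factors, ORC1, the largest subunit of the origin recognition complex, fell in shGFP cells from 4.99 and 3.82 to 2.66 and 2.62 FPKM (−0.56, SE 0.11, limma adjusted p = 0.00305), and read 2.84 and 2.57 and then 2.59 and 2.50 in shMLKL cells (−0.06, adjusted p = 0.688). CDT1, the CDC6 partner, fell in shGFP cells (−0.39, limma adjusted p = 0.0163), a call lost without shGFP DMSO replicate 2 or shGFP TBZ replicate 1 (−0.31 to −0.26). It was lost too with quantile normalization (−0.27, adjusted p = 0.0579). ORC6 was not called with TBZ in either line (−0.19, adjusted p = 0.0592 in shGFP and 0.00, adjusted p = 0.991 in shMLKL). Under DMSO all 3 were lower in shMLKL cells (ORC1 −0.54, CDT1 −0.40 and ORC6 −0.29), and with equal library medians the calls of CDT1 (−0.23, adjusted p = 0.0874) and ORC6 (−0.13, adjusted p = 0.189) were lost. They were lost too for CDT1 without shGFP DMSO replicate 2 or shMLKL DMSO replicate 2 (−0.37 to −0.33, adjusted p 0.0602 to 0.0794) and for ORC6 without shGFP DMSO replicate 2 (−0.26, adjusted p = 0.0569).

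The genes that turn the loaded helicase into an active one moved less evenly. GINS1 to GINS4 encode the 4 subunits of GINS, and in shGFP cells GINS1, GINS2 and GINS3 fell with TBZ while GINS4 did not pass the test. GINS2 read 7.17 and 6.53 FPKM in DMSO-treated shGFP cells, 4.29 and 4.98 in TBZ-treated shGFP cells, 2.67 and 3.19 in DMSO-treated shMLKL cells and 1.97 and 3.18 in TBZ-treated ones. It was among the members furthest apart between the lines, lower in shMLKL cells under DMSO (−1.0005, SE 0.16, limma adjusted p = 0.00108) and TBZ (−0.68, adjusted p = 0.00923). The fall with TBZ in shGFP cells (−0.48, limma adjusted p = 0.0338) was lost without any 1 of the 4 shGFP libraries (−0.57 to −0.39). It was lost too with equal library medians (−0.41, adjusted p = 0.0623) and quantile normalization (−0.38, adjusted p = 0.0749). The same held with no filter (−0.48, adjusted p = 0.0751) and a pseudocount of 0.1 (−0.56, adjusted p = 0.0549). The TBZ difference between lines was lost without shGFP TBZ replicate 2 (−0.59).

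GINS4 read 2.10 and 2.02 and 1.79 and 2.06 FPKM in shGFP cells under DMSO and TBZ (−0.07, limma adjusted p = 0.502). In shMLKL cells it rose from 1.04 and 1.11 to 1.60 and 1.74 (0.36, SE 0.081, limma adjusted p = 0.0104). The rise was lost without shMLKL DMSO replicate 1 or shMLKL TBZ replicate 2 (0.33 to 0.34, adjusted p 0.0531 to 0.0539). GINS1 fell in shGFP cells (−0.29, limma adjusted p = 0.0303), a call lost without shGFP DMSO replicate 1, shGFP DMSO replicate 2 or shGFP TBZ replicate 1 (−0.30 to −0.20). That call was lost too with equal library medians (−0.22, adjusted p = 0.0838), quantile normalization (−0.22, adjusted p = 0.0834) or no filter (−0.29, adjusted p = 0.0592). GINS3 fell as well (−0.56, adjusted p = 0.00121). MCM10 and CDC45, which help fire the helicase, were not called with TBZ in either line, with changes from −0.19 to 0.13. Under DMSO all 6 genes of this role were called lower in shMLKL cells, from −0.15 (CDC45) to −1.0005 (GINS2). The calls of CDC45 and GINS3 did not hold: with equal library medians CDC45 was at 0.02, adjusted p = 0.828 and GINS3 at −0.13, adjusted p = 0.225. Without 1 library the CDC45 call was lost for shGFP DMSO and TBZ replicates 1 and 2 and for shMLKL DMSO replicates 1 and 2 (−0.20 to −0.11, adjusted p 0.0513 to 0.232), and the GINS3 call for shGFP DMSO replicate 1 and shMLKL DMSO replicate 1 (−0.27 to −0.22, adjusted p 0.0807 to 0.11).

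PCNA, the sliding clamp, ended highest where most members were low. It stood at 44.4 and 40.9 FPKM in DMSO-treated shGFP cells, 39.7 and 37.6 in TBZ-treated shGFP cells, 48.9 and 44.9 in DMSO-treated shMLKL cells and 60.1 and 64.2 in TBZ-treated ones (hg19 chr20:5095599-5107268, reverse strand). The shMLKL TBZ libraries lay above all 6 others, and both shGFP TBZ libraries lay below all others. PCNA rose with TBZ in shMLKL cells (0.40, SE 0.061, limma adjusted p = 0.00187), and its change in shGFP cells was −0.14, adjusted p = 0.09. The TBZ effects differed by 0.54, SE 0.086, limma adjusted p = 0.00566, and under TBZ PCNA was higher in shMLKL cells by 0.67, adjusted p = 0.000109. Under DMSO the lines differed by 0.13, adjusted p = 0.0887, which became a call of higher PCNA in shMLKL cells with equal library medians (0.30, adjusted p = 0.00402).

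Replication factor C loads the clamp, and its subunits RFC1, RFC2 and RFC5 fell in shGFP cells (−0.22, −0.37 and −0.20) while RFC3 was not called (−0.07, adjusted p = 0.468). The calls of RFC2 and RFC5 were lost without shGFP DMSO replicate 1, shGFP DMSO replicate 2 or shGFP TBZ replicate 1 (RFC2 −0.37 to −0.25), and for RFC5 without shGFP TBZ replicate 2 as well (−0.21 to −0.18). The RFC5 call was lost too with equal library medians (−0.13, limma adjusted p = 0.116), quantile normalization (−0.17, adjusted p = 0.0507) or no filter (−0.20, adjusted p = 0.0581). In shMLKL cells none of these 4 was called with TBZ, with changes from −0.04 to 0.09. Under DMSO RFC5 was lower in shMLKL cells (−0.43, adjusted p = 0.000943). RFC1 (−0.13, adjusted p = 0.0396) and RFC2 (−0.35, adjusted p = 0.0112) were called lower too, but with equal medians RFC1 turned to 0.04, adjusted p = 0.51 and RFC2 stood at −0.18, adjusted p = 0.13. Leaving out either shGFP DMSO library, either shGFP TBZ library or either shMLKL DMSO library also ended the call of RFC1 (−0.16 to −0.10, adjusted p 0.0515 to 0.175), and leaving out either shGFP DMSO library or shMLKL DMSO replicate 1 that of RFC2 (−0.36 to −0.34, adjusted p 0.0506 to 0.055).

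RFC4 cannot be read across the lines. It stood at 19.8 and 19.03 FPKM in shGFP DMSO and 11.3 and 11.8 in shGFP TBZ, a fall (−0.70, SE 0.064, limma adjusted p = 8.08e-05), and was listed at 0 in all 4 shMLKL libraries (hg19 chr3:186507682-186524484, reverse strand). It was also listed at 0 in all 4 libraries of the first experiment, parental cells included, for both of its RefSeq transcripts. Its end overlaps that of EIF4A2 on the opposite strand. Only 4 genes of the table were at 5 FPKM or more in every shGFP library and at 0 in every shMLKL library, and 0 genes the reverse. Since an exact 0 can be a failed estimate here, no fold is given for RFC4 between the lines, and without it the members called lower in shMLKL cells were 37 under DMSO and 17 under TBZ.

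Among the polymerases, POLD3, an accessory subunit of polymerase delta, fell most in shGFP cells. It read 9.60 and 9.63 FPKM in DMSO-treated shGFP cells, 5.9998 and 5.98 in TBZ-treated shGFP cells, 7.82 and 7.71 in DMSO-treated shMLKL cells and 7.51 and 7.31 in TBZ-treated ones, with no overlap between the shGFP TBZ libraries and the rest. The fall in shGFP cells was −0.60, SE 0.048, limma adjusted p = 3.84e-05, and the TBZ effects differed by 0.54, adjusted p = 0.00182. POLD3 was lower in shMLKL cells under DMSO (−0.28, adjusted p = 0.00171, but −0.11, adjusted p = 0.0982 with equal library medians) and higher under TBZ (0.27, adjusted p = 0.00269).

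POLE2, the second subunit of polymerase epsilon, had the largest DMSO difference between the lines outside RFC4. Its libraries were at 3.77 and 3.71 FPKM in DMSO-treated shGFP cells, 2.39 and 2.41 in TBZ-treated shGFP cells, 0.955 and 1.30 in DMSO-treated shMLKL cells and 0.878 and 0.869 in TBZ-treated ones. All 4 shMLKL libraries lay below all 4 shGFP libraries, with differences of −1.16, SE 0.091, limma adjusted p = 3.62e-05, under DMSO and −0.86, adjusted p = 0.000224, under TBZ, and TBZ lowered it in shGFP cells (−0.48, adjusted p = 0.00307). The catalytic subunit POLE fell in shGFP cells as well (−0.34, adjusted p = 0.00215) and was lower in shMLKL cells under DMSO (−0.56) and TBZ (−0.30).

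The primase subunit PRIM1 dropped from 27.6 and 25.9 to 16.7 and 19.7 FPKM in shGFP cells (−0.53, SE 0.082, limma adjusted p = 0.00113) and read 15.7 and 14.8 and then 16.4 and 15.01 in shMLKL cells. In the latter DMSO and TBZ libraries overlapped (0.04, adjusted p = 0.728), and the TBZ effects differed by 0.58, adjusted p = 0.0135, a call lost without shGFP DMSO replicate 1 (0.53, adjusted p = 0.0563). POLA2, a subunit of the primase-polymerase alpha complex, rose in shMLKL cells from 4.44 and 4.57 to 5.43 and 5.78 FPKM (0.26, SE 0.065, limma adjusted p = 0.0161) and read 5.97 and 5.47 and then 4.87 and 5.12 in shGFP cells (−0.16, adjusted p = 0.0635). That rise was lost without shMLKL DMSO replicate 1 or shMLKL TBZ replicate 2 (0.23 to 0.25, adjusted p 0.0759 to 0.0857). POLA1, its catalytic partner, was not called with TBZ in shGFP (−0.13, adjusted p = 0.183) or shMLKL cells (0.22, adjusted p = 0.0524). Both were lower in shMLKL cells under DMSO (POLA1 −0.35, POLA2 −0.29), calls lost with equal library medians (−0.18, adjusted p = 0.0807 and −0.12, adjusted p = 0.168).

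POLD1, the catalytic subunit of polymerase delta, fell from 3.13 and 3.36 to 2.15 and 2.60 FPKM in shGFP cells (−0.33, adjusted p = 0.0131) and from 1.84 and 1.94 to 1.36 and 1.45 in shMLKL cells (−0.26, adjusted p = 0.0464). The libraries did not overlap within either line, and a difference of the effects was not called (0.07, adjusted p = 0.709). The shGFP call was lost without shGFP DMSO replicate 2 or shGFP TBZ replicate 1 (−0.29 to −0.24), and with quantile normalization (−0.18, limma adjusted p = 0.113). The shMLKL call was lost without any 1 of the shMLKL libraries or of the shGFP DMSO libraries (−0.29 to −0.24). It was lost too with quantile normalization (−0.25, adjusted p = 0.0571) or no filter (−0.26, adjusted p = 0.0783).

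Single-strand DNA is held by replication protein A, and its middle subunit RPA2 had the largest TBZ change of all members in shGFP cells. RPA2 (hg19 chr1:28218036-28241308, reverse strand) read 19.05 and 20.7 FPKM in DMSO-treated shGFP cells, 10.97 and 11.00 in TBZ-treated shGFP cells, 14.3 and 13.7 in DMSO-treated shMLKL cells and 14.6 and 15.1 in TBZ-treated ones. Each group was separate from the others, with shGFP DMSO highest and shGFP TBZ lowest. It fell in shGFP cells (−0.80, SE 0.051, limma adjusted p = 1.21e-05), did not pass the test in shMLKL cells (0.08, adjusted p = 0.262), and the effects differed by 0.88, adjusted p = 0.000248. RPA2 was lower in shMLKL cells under DMSO (−0.48, adjusted p = 0.000169) and higher under TBZ (0.40, adjusted p = 0.000532). RPA1, the large subunit, fell in shGFP cells (−0.39, adjusted p = 0.000969) and was lower in shMLKL cells under both conditions (−0.68 and −0.41), while RPA3 was not called with TBZ (−0.20, adjusted p = 0.0615 in shGFP cells).

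FEN1, the nuclease that trims Okazaki fragments, was also lower under DMSO and higher under TBZ in shMLKL cells. It fell from 24.3 and 24.9 to 17.96 and 19.2 FPKM in shGFP cells (−0.39, adjusted p = 0.000886) and rose from 19.95 and 22.2 to 24.7 and 24.9 in shMLKL cells (0.23, adjusted p = 0.0164), and the effects differed by 0.61, SE 0.08, limma adjusted p = 0.00224. The rise was lost without shMLKL DMSO replicate 1, shMLKL TBZ replicate 1 or shMLKL TBZ replicate 2 (0.15 to 0.23, adjusted p 0.0577 to 0.0829). Under TBZ FEN1 was higher in shMLKL cells (0.40, adjusted p = 0.000908); the lower level under DMSO (−0.21, adjusted p = 0.012) was lost with equal library medians (−0.05, adjusted p = 0.542) and on leaving out shGFP DMSO replicate 2 or shMLKL DMSO replicate 1 (−0.20 to −0.14, adjusted p 0.0629 to 0.0649). LIG1, the ligase that seals the fragments, was called by line only. It read 6.99 and 6.56 and 5.69 and 6.33 FPKM in shGFP cells under DMSO and TBZ, against 2.96 and 3.25 and 3.23 and 3.75 in shMLKL cells. All 4 shMLKL libraries lay below all shGFP libraries (−0.92, SE 0.085, limma adjusted p = 7.63e-05, under DMSO and −0.64, adjusted p = 0.000627 under TBZ), and TBZ gave no call in either line (−0.15, adjusted p = 0.164 and 0.13, adjusted p = 0.277).

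**Figure D3:**
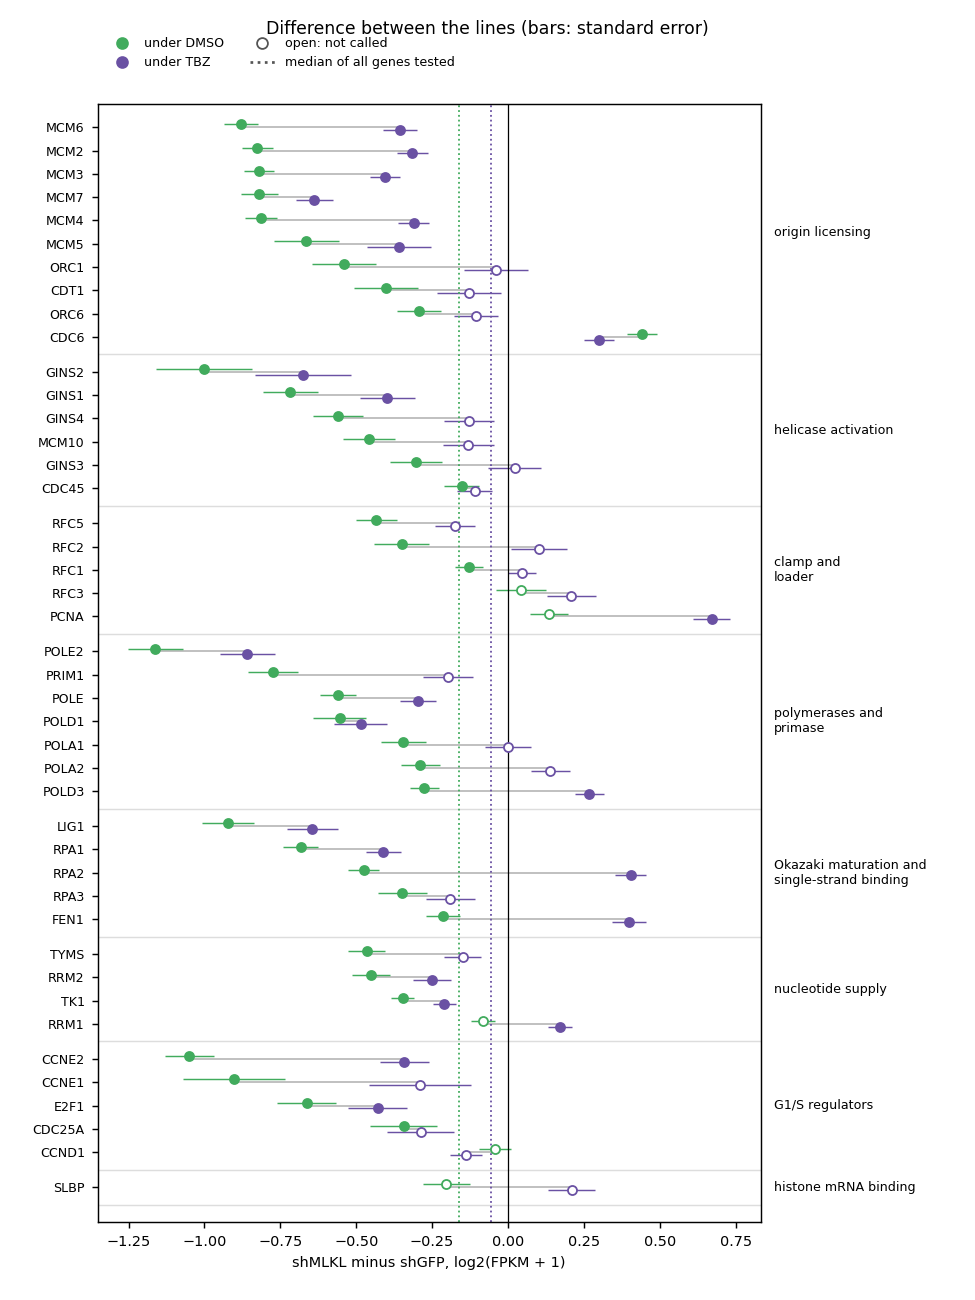
Difference of shMLKL minus shGFP cells in log2(FPKM + 1) for 43 members by role, under DMSO (green) and TBZ (purple); bars are standard errors, open points were not called, dotted lines are the medians of all genes, and RFC4 and E2F2 are left out. Nearly all green points lie below 0, CDC6 lies above it under both conditions, and PCNA, RPA2, FEN1 and POLD3 lie above it under TBZ.

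The enzymes of nucleotide supply included the most abundant member. RRM1, the large subunit of ribonucleotide reductase, stood at 63.8 and 60.7 FPKM in DMSO-treated shGFP cells, 53.2 and 53.9 in TBZ-treated shGFP cells, 57.8 and 59.8 in DMSO-treated shMLKL cells and 59.05 and 61.8 in TBZ-treated ones. The shGFP TBZ libraries lay below all others (−0.21, SE 0.04, limma adjusted p = 0.00305), and under TBZ RRM1 was higher in shMLKL cells (0.17, adjusted p = 0.00938), a call lost without shMLKL TBZ replicate 2 (0.14, adjusted p = 0.0551). RRM2, the small subunit, which limits the activity in S phase, read 59.6 and 59.2 and 52.6 and 53.1 FPKM in shGFP cells under DMSO and TBZ, and 43.2 and 43.3 and 41.1 and 47.8 in shMLKL cells. It was lower in shMLKL cells under DMSO (−0.45, SE 0.063, limma adjusted p = 0.000573) and TBZ (−0.25, adjusted p = 0.0125). The latter was lost with equal library medians (−0.17, adjusted p = 0.0613) and without shGFP TBZ replicate 1 or shGFP TBZ replicate 2 (−0.26 to −0.24). The change of RRM2 with TBZ was −0.17, adjusted p = 0.0545 in shGFP and 0.04, adjusted p = 0.694 in shMLKL cells, with a difference of 0.20, adjusted p = 0.141. The shGFP fall became a call with quantile normalization (−0.22, adjusted p = 0.0213) and with genes with a 0 left out (−0.17, adjusted p = 0.0425). It became a call too without either shMLKL TBZ library (−0.17). Without shMLKL TBZ replicate 1 the change in shMLKL cells was 0.14 and the difference 0.31, and both became calls. TYMS, thymidylate synthase, fell with TBZ in shGFP cells (−0.38, adjusted p = 0.00152), and TK1, thymidine kinase, did not pass the test (−0.09, adjusted p = 0.0761); both were lower in shMLKL cells under DMSO (−0.47 and −0.35).

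Of the 5 regulators of the G1/S step tested, 4 were lower in shMLKL cells under DMSO, where 44.8% of all genes were, and 1 fell with TBZ in shGFP cells, where 37.3% did. CCND1, cyclin D1, was not called in any of the 5 comparisons: it read 32.1 and 35.4 FPKM in DMSO-treated shGFP cells, 33.5 and 33.1 in TBZ-treated shGFP cells, 31.7 and 33.8 in DMSO-treated shMLKL cells and 30.5 and 29.8 in TBZ-treated ones. Its changes with TBZ were −0.02, adjusted p = 0.793 and −0.11, adjusted p = 0.135 in shGFP and shMLKL cells, the effects differed by −0.10, adjusted p = 0.384, and the lines differed by −0.04, adjusted p = 0.509 under DMSO and −0.14, adjusted p = 0.0618 under TBZ. The last became a call without either shGFP DMSO library (−0.14) and with quantile normalization (−0.14, limma adjusted p = 0.0495). With quantile normalization the fall with TBZ in shMLKL cells was called too (−0.19, adjusted p = 0.0219). CCNE2, one of the cyclins E, read 7.11 and 6.59 FPKM in DMSO-treated shGFP cells, 4.89 and 5.001 in TBZ-treated shGFP cells, 2.53 and 3.07 in DMSO-treated shMLKL cells and 3.66 and 3.73 in TBZ-treated ones. The 4 groups did not overlap, and TBZ brought the lines closer: CCNE2 fell in shGFP cells (−0.40, adjusted p = 0.00431), rose in shMLKL cells (0.31, adjusted p = 0.0205), and the effects differed by 0.71, SE 0.11, limma adjusted p = 0.00572. It was lower in shMLKL cells under DMSO (−1.05, adjusted p = 3.43e-05) and TBZ (−0.34, adjusted p = 0.00987). The rise was lost without shMLKL DMSO replicate 1, shMLKL TBZ replicate 1 or shMLKL TBZ replicate 2 (0.21 to 0.32, adjusted p 0.0645 to 0.1), and the TBZ difference without shGFP TBZ replicate 2 (−0.33, adjusted p = 0.052).

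CCNE1, the other cyclin E, was at 3.43 and 3.38 FPKM in DMSO-treated shGFP cells, 2.53 and 2.08 in TBZ-treated shGFP cells, 1.67 and 1.08 in DMSO-treated shMLKL cells and 1.33 and 2.13 in TBZ-treated ones. It was lower in shMLKL cells under DMSO (−0.90, SE 0.17, limma adjusted p = 0.00233), and under TBZ the lines came to overlap (−0.29, adjusted p = 0.184). Its TBZ changes were −0.42, adjusted p = 0.0662 in shGFP and 0.20, adjusted p = 0.395 in shMLKL cells, with a difference of 0.61, adjusted p = 0.102. The shGFP fall became a call without either shMLKL TBZ library (−0.42, adjusted p 0.0378 and 0.039), and the difference without shMLKL TBZ replicate 1 (0.82, adjusted p = 0.0488). E2F1, the activating transcription factor, stood at 4.79 and 4.30 and 3.37 and 4.20 FPKM in shGFP cells and 2.56 and 2.44 and 2.65 and 2.43 in shMLKL cells, again under DMSO and TBZ. All 4 shMLKL libraries lay below all 4 shGFP libraries (−0.66, SE 0.097, limma adjusted p = 0.000756, under DMSO and −0.43, adjusted p = 0.00811 under TBZ). TBZ gave no call for E2F1 in shGFP (−0.22, adjusted p = 0.0933) or shMLKL cells (0.02, adjusted p = 0.915), though without shGFP TBZ replicate 2 the first did pass (−0.34, adjusted p = 0.0291), and the effects differed by 0.23, adjusted p = 0.256. CDC25A, the phosphatase that activates CDK2, changed by −0.10, adjusted p = 0.483 and −0.04, adjusted p = 0.811 with TBZ. Its lower level in shMLKL cells under DMSO (−0.34, adjusted p = 0.0274) was lost with equal library medians (−0.17, adjusted p = 0.204) and on leaving out shGFP DMSO replicate 1 or shMLKL DMSO replicate 2 (−0.26 to −0.22, adjusted p 0.147 to 0.168).

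SLBP, which binds the stem-loop of histone messages made in S phase, had the largest rise of all members in shMLKL cells. It read 25.3 and 22.2 FPKM in DMSO-treated shGFP cells, 24.8 and 24.1 in TBZ-treated shGFP cells, 19.1 and 21.8 in DMSO-treated shMLKL cells and 29.2 and 27.7 in TBZ-treated ones. The last 2 libraries lay above all others, and the rise was 0.46, SE 0.078, limma adjusted p = 0.00296, against 0.05, adjusted p = 0.63 in shGFP cells. The lines differed by −0.20, adjusted p = 0.0515 under DMSO and 0.21, adjusted p = 0.0547 under TBZ, neither of which passed the test. Without shGFP DMSO replicate 2 or shMLKL DMSO replicate 2 the DMSO difference did pass (−0.29, adjusted p 0.0249 and 0.0228), and without either DMSO library of either line the TBZ difference did (0.21, adjusted p 0.0378 to 0.042), as it did with equal library medians (0.29, adjusted p = 0.0187).

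Across the TBZ comparisons of both lines, 20 members fell in shGFP cells and were not called in shMLKL cells (among them RFC4, which was at 0 there and could not be called), 3 fell in both (MCM3, MCM7 and POLD1), and 3 fell in shGFP and rose in shMLKL cells (CCNE2, FEN1 and MCM4). GINS4, PCNA, POLA2 and SLBP rose in shMLKL cells and were not called in shGFP cells, CDC6 did the reverse, and 13 members were called in neither. The difference of effects was called under every alternative for RPA2, CCNE2, FEN1, POLD3, PCNA, MCM2, MCM3, MCM4 and MCM6. RFC4, with its limits, was called under every alternative that tested it. For the rest the call was lost under some of the alternatives. With equal library medians the limma call was lost for ORC1 (0.41, adjusted p = 0.104), RFC2 (0.36, adjusted p = 0.103) and GINS4 (0.34, adjusted p = 0.092). The same held for SLBP (0.32, adjusted p = 0.0951), TYMS (0.22, adjusted p = 0.127) and RRM1 (0.16, adjusted p = 0.122). Other losses of the call came with libraries left out. It was lost without any 1 library but shGFP DMSO replicate 2 for ORC1 (0.50, adjusted p = 0.05, just under the threshold; 0.34 to 0.55, adjusted p 0.0776 to 0.132), but shMLKL TBZ replicate 1 or shGFP TBZ replicate 2 for RFC2 (0.45, adjusted p = 0.0433; 0.33 to 0.46, adjusted p 0.0954 to 0.112), and but shGFP TBZ replicate 2 for GINS4 (0.43, adjusted p = 0.0348; 0.36 to 0.47, adjusted p 0.0574 to 0.0916). SLBP (0.41, adjusted p = 0.0346) kept its call only without shGFP DMSO replicate 2 or shMLKL DMSO replicate 2 (otherwise 0.32 to 0.45, adjusted p 0.0623 to 0.0984), and TYMS (0.32, adjusted p = 0.0384) only without shGFP TBZ replicate 1 or shMLKL DMSO replicate 1 (otherwise 0.25 to 0.34, adjusted p 0.0666 to 0.112). POLA2 (0.43, adjusted p = 0.0173) lost it without shGFP DMSO replicate 1, shGFP TBZ replicate 1, shMLKL DMSO replicate 1 or shMLKL TBZ replicate 2 (0.37 to 0.41, adjusted p 0.0504 to 0.0616). RRM1 (0.25, adjusted p = 0.0199) lost it without those 4 or without shGFP TBZ replicate 2 (0.22 to 0.26, adjusted p 0.0522 to 0.0641).

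In the wider pathway too more genes fell than rose in shGFP cells, and 3 inhibitors of cyclin-dependent kinases rose most. A list of 86 further replication and G1/S genes had 85 in the table and 84 tested. In shGFP cells TBZ lowered 41 of the 84 and raised 10, with a median of −0.21, where 37.3% of all genes fell and 19.1% rose. With equal library medians 29 fell and 13 rose, where 28.2% and 22.6% of all genes did. Of 41 genes of the replication machinery and fork 19 fell and 2 rose, of 15 genes of nucleotide supply 10 fell and 2 rose, and of 28 genes of G1/S control 12 fell and 6 rose. CDKN1A, the p21 inhibitor, rose from 12.6 and 14.5 to 88.3 and 89.01 FPKM (2.62, SE 0.058, limma adjusted p = 5.48e-08), CDKN2B, the p15 inhibitor of CDK4 and CDK6, from 5.06 and 5.92 to 27.9 and 27.8 (2.16), and CDKN1C, p57, by 0.56. At the lower end were FBXO5, which restrains the anaphase-promoting complex, from 14.5 and 13.6 to 6.64 and 6.41 FPKM (−0.998), the repressor E2F8 (−0.96), and SKP2, which marks p27 for degradation (−0.83). The gene of p27 itself, CDKN1B, also fell (−0.82). So did CDKN2C, another inhibitor of these kinases, from 2.56 and 1.79 to 0.816 and 0.876 FPKM (−0.77).

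In shMLKL cells 15 of the 84 rose and 13 fell with TBZ, near the 20.0% and 17.6% of all genes, with a median of −0.02. CDKN1A rose there too, from 34.01 and 34.3 to 72.4 and 71.4 FPKM (1.05, SE 0.058, limma adjusted p = 1.04e-05), as did CDKN2D, the p19 inhibitor (0.67), and CLSPN, a fork checkpoint protein (0.66). The falls were led by E2F5 (−0.998), E2F3 (−0.58) and POLD4, the small subunit of polymerase delta (−0.53). With equal library medians 12 rose and 16 fell in shMLKL cells, where 17.5% and 20.7% of all genes did. The TBZ effect was higher in shMLKL cells for 24 and lower for 6, where it was higher for 14.6% and lower for 7.66% of all genes, the latter led by CDKN2B (−1.89), CDKN1A (−1.57) and the kinase WEE1 (−0.79), and the former by SKP2 (0.98), the CDT1 inhibitor GMNN (0.74) and FBXO5 (0.73). With equal library medians the 24 became 11, and the share of all genes 6.72%.

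Under DMSO 57 of the 84 were lower in shMLKL cells and 9 higher, where 44.8% and 18.3% of all genes were, with a median of −0.35. With equal library medians 41 were lower and 17 higher, where 26.6% and 30.1% of all genes were. CDKN2B was at 24.4 and 24.9 FPKM in shMLKL and 5.06 and 5.92 in shGFP cells (1.98, SE 0.067, limma adjusted p = 1.69e-06), CDKN1A was higher by 1.27 and POLD4 by 0.83. The largest lower values were those of UNG, the uracil glycosylase that acts behind the fork (−1.52), DSCC1, a subunit of an alternative clamp loader (−1.05), and TFDP1, the partner of E2F proteins, at 27.1 and 25.1 against 52.9 and 55.99 FPKM (−1.03). In shGFP cells CDKN2B reached 27.9 and 27.8 FPKM under TBZ. Under TBZ 37 of the 84 were lower and 17 higher, where 31.0% and 20.7% of all genes were, with a median of −0.12. With equal library medians 24 were lower and 21 higher, near the 22.7% and 27.3% of all genes. WEE1 (−1.18), UNG (−0.97) and TFDP1 (−0.92) had the largest lower values there. The largest higher ones were those of the histone chaperone ASF1A (0.82), of CDKN1B, the gene of p27 (0.70), and of the phosphatase CDC25B (0.52).

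The first experiment allows no test, having 1 library a group, and its values are set side by side only within it. In each library the largest entry, of 89 bases, held most of the summed FPKM. Its share was 86.3% and 89.9% in parental DMSO and TBZ, and 88.4% and 83.3% in shMLKL DMSO and TBZ. What this does to the differences was not tested. A gene is counted here where its log2(FPKM + 1) differs by at least 1. Of 41 members at 1 FPKM or more in some library, 7 were lower and 2 higher in parental cells after 4 h of TBZ, where 13.1% of all genes were lower and 8.99% higher. In shMLKL cells after 12 h 11 were lower and 1 higher, where 10.6% were lower and 9.12% higher. With a pseudocount of 0.1 the lower members became 12 at 4 h, where 18.8% of all genes were lower, and 17 at 12 h, where 14.3% were. These counts hold members listed at 0 in 1 of the libraries (ORC1, RFC5, POLA1, POLA2 and TYMS were at 0 in 1 to 3 libraries, and RFC4 and CCNE2 in all 4). Over members above 0 in both libraries, 7 of 37 were lower and 0 higher at 4 h, with a median of −0.37, where 9.66% of all such genes were lower and 6.64% higher and their median was −0.22. At 12 h 10 of 38 were lower and 0 higher, with a median of −0.65, where 7.10% of all such genes were lower and 6.41% higher and their median was −0.13.

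Of the helicase genes, MCM2 and MCM3 were lower after TBZ by at least 1 log2 unit in both kinds of cell. The changes at 4 h and 12 h were −1.15 and −1.16 for MCM2 and −1.06 and −1.05 for MCM3. MCM5 (−0.815 and −1.53) and MCM6 (−0.96 and −2.11) were lower in both but by that much only at 12 h. MCM4 changed by −0.04 and −0.81, and MCM7 by −0.13 and 0.81, the last with a transcript listed at 0 under DMSO (below). MCM2 read 9.01 FPKM in DMSO-treated parental cells and 3.50 after 4 h, and at 16.8 in shMLKL cells under DMSO and 7.002 after 12 h. MCM6 read 7.17 (deposited interval 6.69 to 7.65) and 3.20 (2.84 to 3.56) in parental cells, and 10.96 (10.2 to 11.7) and 1.77 (1.49 to 2.05) in shMLKL cells. The intervals did not overlap between DMSO and TBZ in either kind of cell, although they cover the estimate of 1 library and not the spread between cultures. PRIM1 went from 3.83 to 0.762 at 4 h and from 5.17 to 1.058 at 12 h, and E2F1 from 7.54 to 5.62 and from 5.65 to 1.22. RPA1 was at 2.39 and 0.425 FPKM in parental cells and at 18.4 and 3.98 in shMLKL cells, so it was lower after TBZ in both, and the DMSO libraries were far apart.

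Not every member was lower. CDC6 went from 12.98 to 20.3 FPKM in parental cells at 4 h (deposited intervals 12.1 to 13.9 and 19.1 to 21.5), and from 9.54 to 7.86 in shMLKL cells at 12 h. PCNA went from 38.5 to 48.04 and from 50.9 to 38.8. MCM7 read 33.8 and 30.7 in parental cells and 22.6 and then 40.4 in shMLKL cells, and CCND1 went from 25.3 to 42.5 in the latter. Much of the MCM7 rise lay in a transcript listed at 0 in shMLKL DMSO and at 11.96 after 12 h. The main MCM7 transcript went from 22.6 to 28.4 there. Times, lines and processing differ between the experiments, so the sizes of change are not compared across them.

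The DMSO libraries of the first experiment did not show the line difference of the second, a comparison chosen after the values were seen. Over the 37 members above 0 in both, 23 were higher in shMLKL than in parental cells and 14 lower, with a median of 0.10 against 0.06 over all such genes. By a log2 difference of 1 or more, RPA1 was higher and CDC25A lower and no other member was counted, where 3.69% of all genes were higher and 3.07% lower. MCM2 (16.8 against 9.01 FPKM), MCM3 (24.8 against 13.7), MCM5 (8.07 against 4.598) and MCM6 were higher in shMLKL cells there, and CDC6 lower, each against its direction in the second experiment. MCM7 (22.6 against 33.8 FPKM), GINS1 (2.77 against 4.72), GINS2 (3.95 against 5.81) and E2F1 (5.65 against 7.54) were lower in shMLKL cells in both experiments. For MCM7 the gap in the first experiment lay in a transcript listed at 0 in shMLKL and at 10.7 in parental cells. Its main transcript read 22.6 against 23.1, and the 0 can be a failed estimate. The reference was parental cells in the first experiment and shGFP cells in the second, so the reference line and the experiment cannot be told apart.

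**Figure D4:**
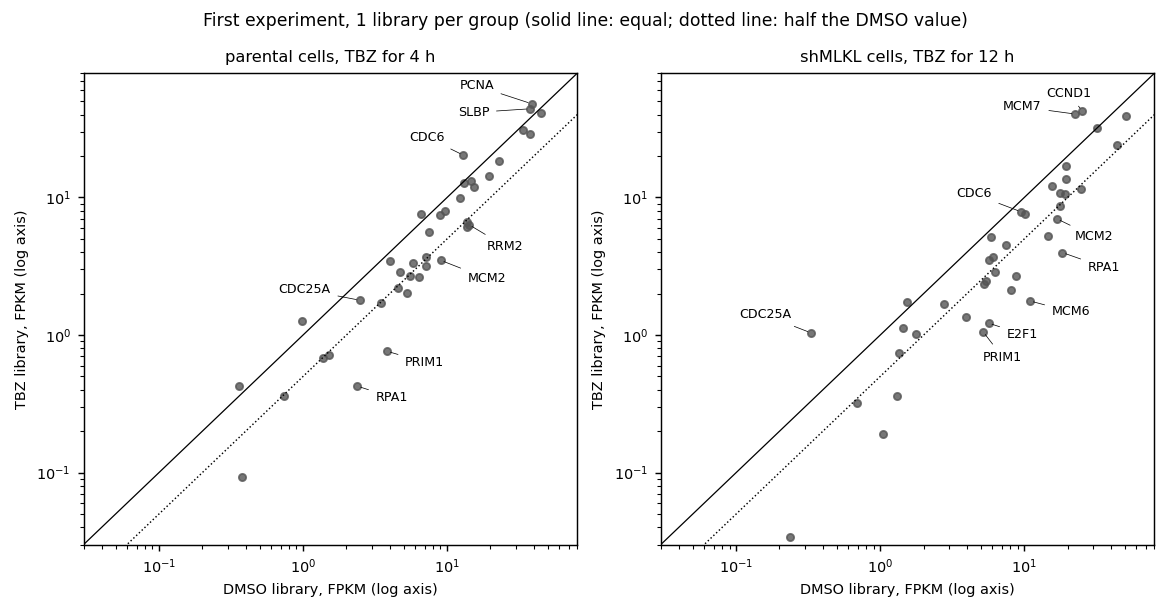
First experiment: FPKM of members above 0 in both libraries, DMSO on the x axis and TBZ on the y axis, both logarithmic, for parental cells (4 h, left) and shMLKL cells (12 h, right), 1 library per group. The solid line marks equal values and the dotted line a halving; most points lie below the solid line, while CDC6 lies above it at 4 h and MCM7 and CCND1 at 12 h. A transcript of MCM7 was listed at 0 in the shMLKL DMSO library.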

How the data were processed

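RNA of 12 HT-29 libraries was measured by poly-A selected, strand-specific, paired-end RNA-seq, per the labels' protocols. TopHat2 2.0.13, Cufflinks 2.2.1, STAR 2.4.0f1, GATK and the genome build hg19 are named in the submitters' processing notes, without their roles for each file. The values were deposited by the authors as 1 table of 8 libraries and 4 transcript tables. Their unit is FPKM, named per the file headers of the transcript tables, while for the 8-library table it was inferred from its layout and values. Depth per library is therefore unknown and gives no interval for the second experiment. Tests were run on log2(FPKM + 1) with limma 3.58.1 in R 4.3.3, with a mean for each of the 4 groups of 2 libraries, trended variance moderation (residual degrees of freedom 4, prior 3.46), a filter of a mean of 1 FPKM in at least 1 group, and Benjamini-Hochberg adjustment over 10364 genes in each of 5 comparisons. The line with the highest mean stood for each symbol. The fit was tested on simulated data. The members and lists were chosen with earlier results of these data known. Values in every library were given by rule for the 6 called members with the largest changes in each comparison, for members called against most of their role, and for CCND1, CCNE1, E2F1, PCNA, MCM2, CDC6 and RRM2. Of the further genes, at most 3 each way per comparison were named by size of change, besides CDKN1B and CDKN2C, which were added after their values were seen. Alternatives changed the pseudocount, the filter, the scaling, the treatment of several lines per symbol and of zeros, the replicate block and the libraries left out. In the first experiment transcripts were summed per symbol and nothing was tested. RefSeq promoter windows served for the motif counts, the stretches shown and the split of members by the E2F motif.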

Additional observations from a re-analysis of the deposited data

Results flagged for a closer look

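The change with TBZ differed between shMLKL and shGFP cells, by the limma interaction term, for 18 of the 44 members tested, each with the higher effect in shMLKL cells. In log2 units the differences were 0.88 for RPA2, 0.709 for CCNE2, 0.701 for RFC4 (listed at 0 in every shMLKL library), 0.613 for FEN1, 0.575 for PRIM1, 0.543 for POLD3, 0.536 for PCNA, 0.521 for MCM6, 0.511 for MCM2, 0.503 for MCM4, 0.50 for ORC1, 0.451 for RFC2, 0.431 for GINS4, 0.428 for POLA2, 0.416 for MCM3, 0.414 for SLBP, 0.316 for TYMS and 0.253 for RRM1. No group was tested for a sample far from the others, since each had 2 libraries.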

How the results depend on the processing

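Results were recomputed under 15 other settings, of which leaving out genes with a 0 was chosen after seeing the data. Of the calls, 20 of 27 in the shGFP TBZ comparison, 3 of 10 in shMLKL, 10 of 18 in the difference of effects, 27 of 39 between the lines under DMSO and 18 of 24 under TBZ held in all of them that tested the gene. Each of these counts but that in shMLKL includes RFC4, which was not tested where genes with a 0 were left out. The lack of read counts leaves depth unassessed. With library medians equal the shMLKL TBZ median over the members turned from 0.0235 to −0.0046, with quantile normalization to −0.0087 and without shMLKL TBZ replicate 2 to −0.004962, in a range up to 0.0247 over the libraries left out. The DMSO line differences of CDC45 (0.016) and RFC1 (0.041) also turned with library medians equal, where 2 members were higher. The causes were not tested. With 1 library left out, where the lone library of a group is taken to vary like the others, members higher and lower were 0 to 1 and 20 to 28 in shGFP under TBZ, 3 to 7 and 0 to 3 in shMLKL, 10 to 16 and 0 in the difference, 1 and 33 to 38 between lines under DMSO, and 5 to 8 and 14 to 19 under TBZ. With a pseudocount of 0.1 in the first experiment, 12 members were lower and 2 higher at 4 h (18.8% and 10.9% of all genes), and 17 lower and 2 higher at 12 h (14.3% and 11.3%).

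Replicate numbers did not pair the samples, with correlations of same-numbered deviations from −0.066 to 0.0282. With the replicate number as a block, 1 member was higher and 26 lower in shGFP under TBZ, 7 and 3 in shMLKL, 17 and 0 in the difference, 1 and 37 between lines under DMSO, and 6 and 19 under TBZ. SLBP in the difference and CDC45 between lines under DMSO lost their calls, and RFC5 under TBZ gained one.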
